A study of Mus musculus with 12 samples.

Results

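The response of the wild-type mouse liver to a high-fat diet was measured as the difference between 3 liver extracts of mice fed the high-fat diet and 3 of mice fed the low-fat diet. These 6 arrays are chosen by their labels, from 12 arrays in the series, and all genes with a probe set of their own were included. The mice were male, carried Pml, and had eaten for 20 weeks a diet with 10% or 60% of its calories from fat. They were fasted for 8 h before the liver was taken. The strain and the age of the mice are not given in the sources used here. The other 6 arrays hold the same diets in mice labelled as knockouts of Pml, whose allele the sources used here do not describe, and they give a second set of livers in which each diet change could be read. Each group had 8 mice, of which 3 liver extracts were put on arrays. The labels number the extracts 1 to 3 without stating that they are from different mice, so the p-values measure the spread between these extracts.

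The liver makes fatty acids from surplus carbohydrate and burns fatty acids in mitochondria and peroxisomes. Synthesis runs from citrate to acetyl-CoA and malonyl-CoA, then to palmitate, which is lengthened by elongases and given double bonds by desaturases. Its genes are switched on by SREBP-1c and ChREBP in response to insulin and sugar and are restrained by dietary polyunsaturated fat. Genes of fatty acid oxidation are targets of PPAR-alpha, a nuclear receptor that binds fatty acids, and genes of cholesterol synthesis are driven by SREBP-2 when sterols are scarce.

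The 6 arrays were alike, with Pearson's r between 0.991 and 0.995 across probe sets, which are not independent replicates. Their first principal component held 31.1% of the variance, with the low-fat arrays between -13.6 and -8.38 and the high-fat arrays between 6.79 and 12.7. Hepatocyte markers were bright, with a mean log2 signal of 11.95 ± 0.019 with low-fat and 11.88 ± 0.033 with high-fat feeding, while cholangiocyte and T and NK cell markers lay near 3.5 and 3.8, below the lowest mean of 4.08 among the tested genes. Pml, which should be intact here, read 5.40, 4.92 and 5.07 with low-fat and 4.97, 5.35 and 5.38 with high-fat feeding, and the groups overlapped. The 3' minus 5' signal of actin, which grows as RNA breaks down, was 1.51 ± 0.304 (SD, n = 3) with low-fat and 1.58 ± 0.065 with high-fat feeding. Low-fat replicate 3 had the highest value, 1.85. The same measure for Gapdh was 0.331 ± 0.140 with low-fat and 0.449 ± 0.071 with high-fat feeding, and high-fat replicate 2 was highest at 0.530, followed by low-fat replicate 3 at 0.492. All values below are log2 signals, so a difference of 1 is a doubling, and a level is compared only with levels of the same probe set.

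At an adjusted p of 0.05 or less, 18 of 10258 tested genes, or 0.175%, differed between the diets. Of these, 8 rose (0.078% of the tested genes) and 10 fell (0.0975%) on the high-fat diet. The falls ranged from 1.89-fold to 6.64-fold and the rises from 1.59-fold to 3.28-fold. Without the correction, 905 genes (8.82%) had a p under 0.05, 446 higher (4.35%) and 459 lower (4.47%). In 1612 genes (15.7%) the 3 high-fat arrays lay all above or all below the 3 low-fat arrays, 803 above (7.83%) and 809 below (7.89%). The median log2 change of all tested genes was -0.00094, and 49.7% of them were above 0. Of the 18 genes, 9 belonged to the 35 pathway lists examined. The enzymes of fatty acid synthesis accounted for 5 of the 10 that fell. Among the 8 that rose were a pair of isomerases that prepare unsaturated fatty acids for oxidation, a lipid droplet protein, and a cytochrome c oxidase subunit. All 18 had groups that did not overlap, as the plot of each array's value shows.

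The count changed with single arrays. With wild-type low-fat replicate 1, 2 or 3 left out, 6, 13 and 22 genes passed, of which 6, 10 and 13 were among the 18. With high-fat replicate 1, 2 or 3 left out, 11, 5 and 9 genes passed, of which 7, 5 and 8 were among the 18. The knockout arrays enter only through the estimate of the spread. Without knockout low-fat replicate 2 or 3 the count was 39 and 28, and each of these lists held all 18. Array weights gave 109 genes and quantile normalization 34, again with all 18 among them. Scd1, Elovl6, Cox6b2 and Ech1 passed in every one of these fits. The other 14 genes kept their direction throughout and missed the threshold without at least 1 wild-type array.

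**Figure D1:**
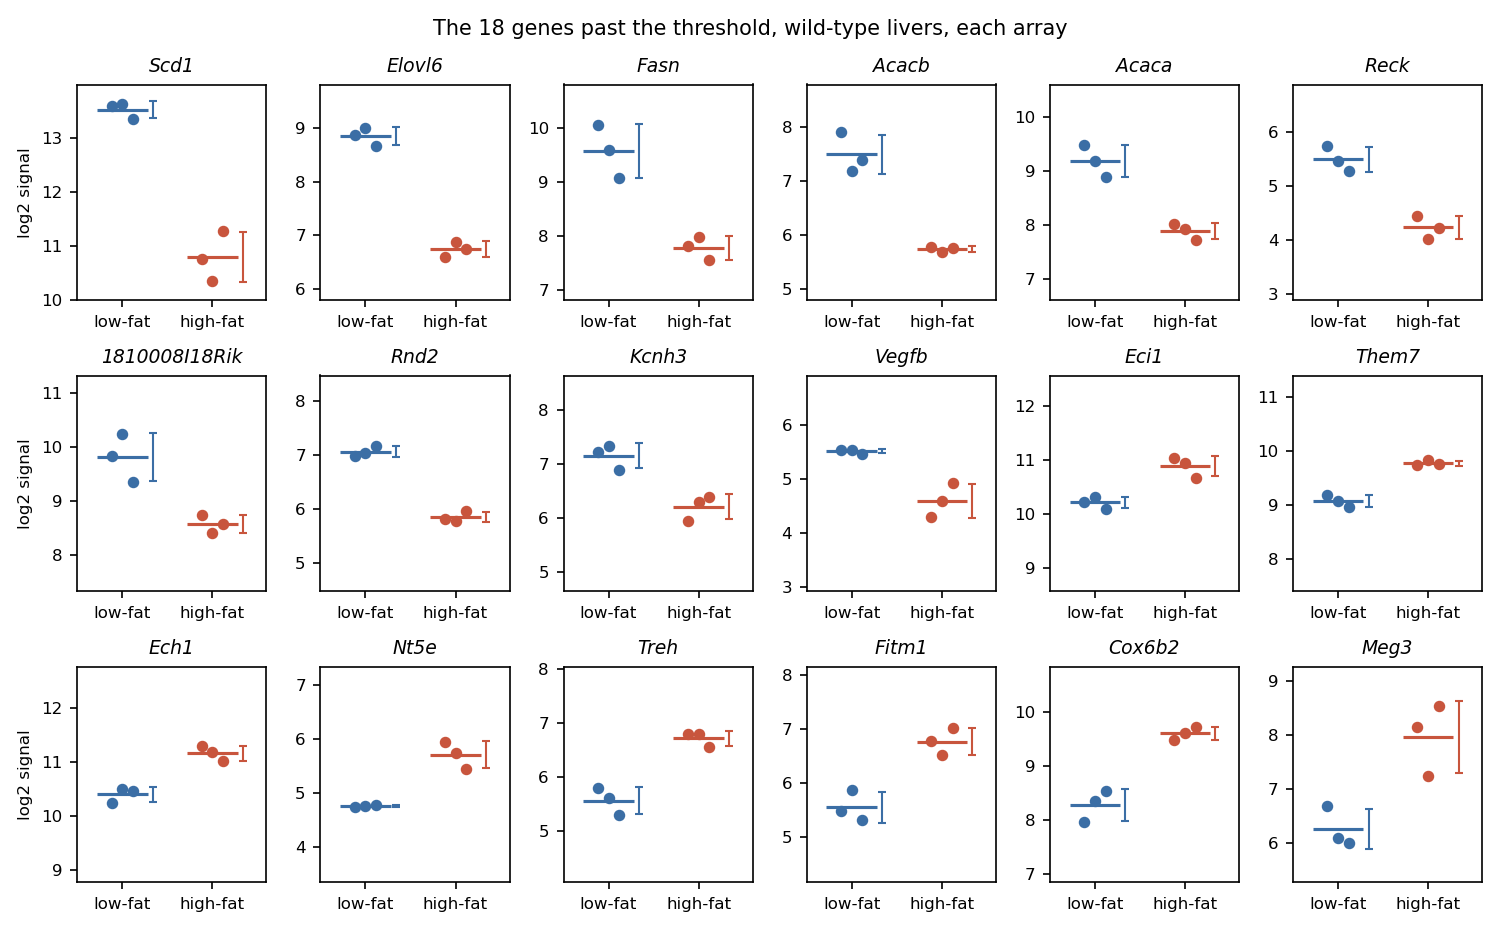
Log2 signal (y axis; each panel has its own range) of the 18 genes past the threshold on each wild-type array, in replicate order from left to right; blue points are low-fat and red points high-fat arrays, lines are group means and bars the SD (n = 3). In each panel the 3 points of one diet lie wholly above or below those of the other, with Scd1 falling from 13.5 to 10.8 and Meg3 rising from 6.26 to 7.97 on average.

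Scd1 had the largest change of the 18 genes that passed. Its product, stearoyl-CoA desaturase, puts a double bond into saturated fatty acids and so makes oleate and palmitoleate. The log2 signal was 13.58, 13.63 and 13.34 with low-fat and 10.75, 10.34 and 11.27 with high-fat feeding. The low-fat arrays lay close together, not far below 14.2, the highest signal of any probe set, and the high-fat arrays spread more, with replicate 2 lowest. The fall was 6.64-fold (log2 change -2.73, SE 0.178, limma adjusted p = 1.85e-05). Signals that bright can be compressed, and a second Scd1 probe set read 10.1 and 5.31 on average, a log2 change of -4.81.

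Elovl6, the elongase that turns palmitate into stearate, the substrate of Scd1, had the next smallest p. It read 8.86, 8.999 and 8.67 with low-fat and 6.60, 6.89 and 6.76 with high-fat feeding. Both groups were tight, with SDs of 0.167 and 0.146 against a log2 change of -2.10 (SE 0.203, limma adjusted p = 0.000924), a fall of 4.27-fold. Its other probe sets had changes of -1.96 and -0.40. Fasn, fatty acid synthase, which builds palmitate from malonyl-CoA, read 10.07, 9.60 and 9.08 with low-fat and 7.82, 7.99 and 7.56 with high-fat feeding. Low-fat replicate 3 was the lowest of its group and still lay above every high-fat array. The log2 change was -1.80 (SE 0.268, limma adjusted p = 0.0176).

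The acetyl-CoA carboxylases make malonyl-CoA, Acaca in the cytosol for synthesis and Acacb at the mitochondrial surface, where malonyl-CoA holds back the carnitine shuttle. Acaca read 9.48, 9.18 and 8.88 with low-fat and 8.02, 7.92 and 7.72 with high-fat feeding. Acacb read 7.89, 7.18 and 7.37 with low-fat and 5.78, 5.67 and 5.75 with high-fat feeding. Neither gene's groups overlapped, and the 3 high-fat values of Acacb were close together. The falls were 2.45-fold for Acaca (log2 change -1.29, SE 0.174, limma adjusted p = 0.011) and 3.37-fold for Acacb (-1.75, SE 0.262, adjusted p = 0.0176). A dimmer probe set of each gene had small changes, -0.28 for Acaca and 0.10 for Acacb.

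The remaining enzymes of synthesis were mostly lower too. Of 20 tested members of the list, 17 were lower and 5 passed. Of the 20, 13 were lower with groups that did not overlap, against 7.89% of all tested genes. The median log2 change was -0.47, against -0.00094 over all genes. Me1, malic enzyme, which supplies NADPH, read 10.88, 11.03 and 10.21 with low-fat and 9.26, 9.73 and 9.54 with high-fat feeding. Its groups did not overlap, and with a log2 change of -1.19 (SE 0.215, limma adjusted p = 0.0557) it lay just outside the threshold. Acly, which splits citrate into acetyl-CoA, had -1.04 (adjusted p = 0.076), and Elovl5, an elongase of polyunsaturated fatty acids, had -0.48 (adjusted p = 0.076). Acss2, which makes acetyl-CoA from acetate, had -0.94, and the desaturases Fads1 and Fads2 had -0.46 and -0.32. Elovl3, an elongase with more expression in male liver, was the most positive member at 0.62, with overlapping groups (limma adjusted p = 0.581).

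Low-fat replicate 3 was the lowest low-fat array in 17 of the 20 members, and the list's centred median was 0.099 there, against 0.23 and 0.36 in the other low-fat arrays. The same array had the highest 3' minus 5' actin signal. The high-fat arrays lay at -0.39, -0.26 and -0.12. Without low-fat replicate 3 the whole comparison had 22 genes past the threshold, 13 of them among the 18. The part of RNA quality in these values was not tested.

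**Figure D2:**
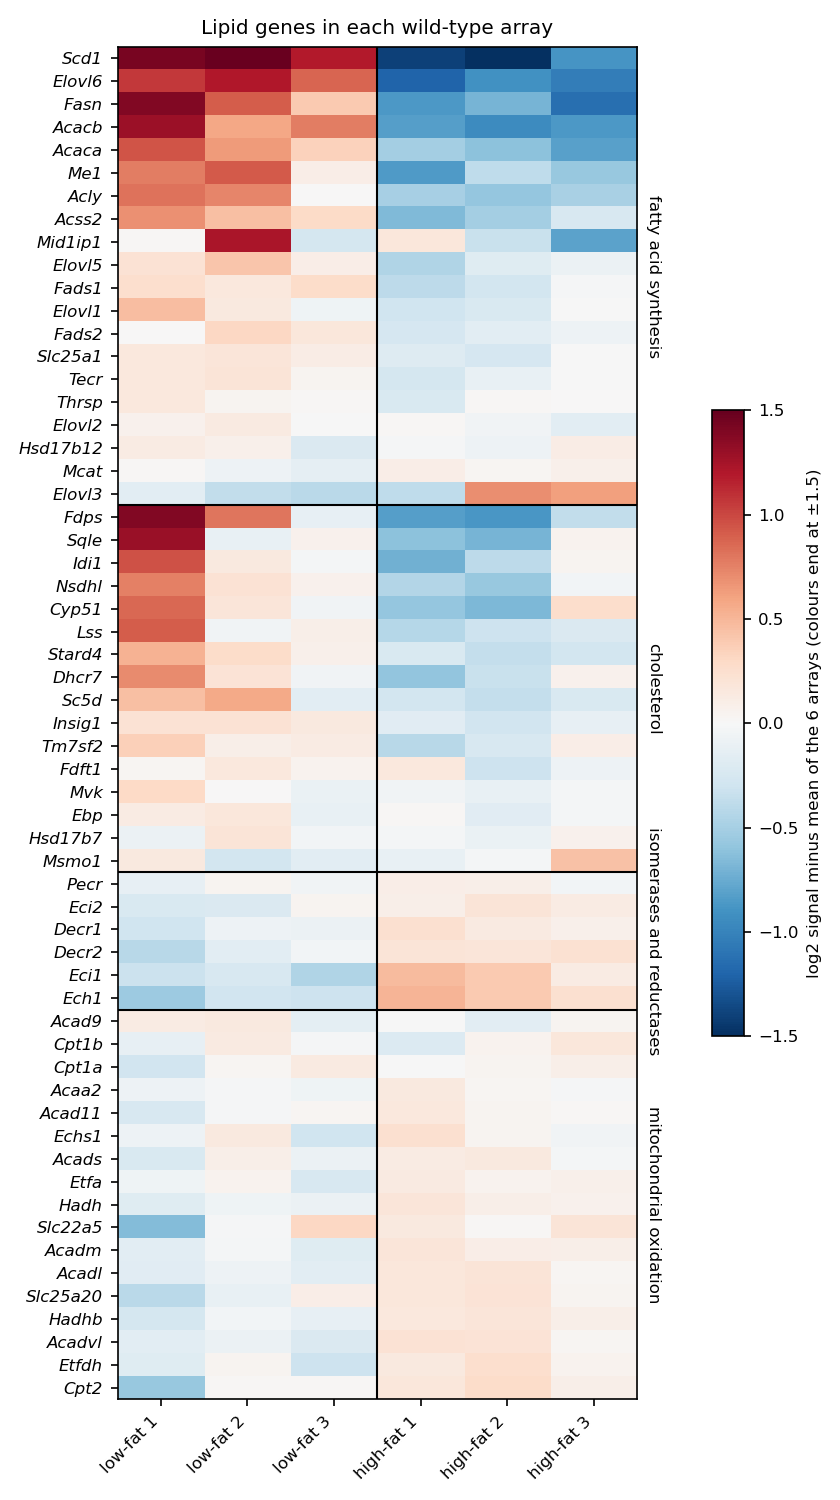
Log2 signal minus the mean of the 6 wild-type arrays (colour, red above and blue below, ending at ±1.5) for all tested members of 4 gene lists (rows, grouped and ordered by change), with low-fat arrays left of the line and high-fat arrays right. Most synthesis genes are red on the low-fat and blue on the high-fat side, low-fat replicate 1 is the reddest array in the cholesterol block, and the oxidation blocks at the bottom are paler and run the other way.

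Cholesterol synthesis genes were lower on the high-fat diet as well, with no member past the threshold. Of 16 tested, 15 were lower, 6 with groups that did not overlap, against 7.89% of all tested genes. The median log2 change was -0.58, against -0.00094 over all genes. Fdps, which makes farnesyl diphosphate, read 10.13, 9.55 and 8.63 with low-fat and 7.93, 7.88 and 8.38 with high-fat feeding. The low-fat arrays spread widely, and the groups came near each other at low-fat replicate 3 and high-fat replicate 3. Its log2 change was -1.37 (SE 0.4, limma adjusted p = 0.266). Stard4, a cholesterol carrier, varied less, at 9.37, 9.12 and 8.92 with low-fat and 8.62, 8.49 and 8.57 with high-fat feeding, with a change of -0.58 (adjusted p = 0.076). The later enzymes Lss, Nsdhl and Sc5d had -0.63, -0.70 and -0.58, and Insig1, a sterol-regulated protein that retains SREBPs in the endoplasmic reticulum, had -0.38. Dimmer probe sets of Sc5d had -0.20 and 0.11. Low-fat replicate 1 was the highest low-fat array in 12 of the 16 members. The list's median was -0.37 without that array and -0.38 with the dim genes kept in.

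The upstream sequences of some of the genes named above are shown as a description. Synthesis and cholesterol genes are known targets of SREBPs, which act with the CCAAT-binding factor NF-Y. The part of these factors in the changes seen here was not tested. The 250 bases before the transcription start come from RefSeq on build GRCm38.p6 and are written 5′ to 3′ in the direction of the gene. Capitals mark the letters CCAAT or, on the opposite strand, ATTGG, and in Insig1 also the E-box CACGTG. Fasn (chr11:120824548-120824797, minus strand) holds CCAAT 3 times, of which 2 overlap as CCAATTGG on opposite strands. Acacb (chr5:114165268-114165517, plus strand) and Lss (chr10:76531355-76531604, plus strand) hold it 1 time each, and Insig1 (chr5:28071162-28071411, plus strand) holds 1 CCAAT and 1 E-box. Nsdhl (chrX:72918271-72918520, plus strand) has 2. Elovl6 (chr3:129532136-129532385, plus strand) and Ech1 (chr7:28825088-28825337, plus strand), an oxidation gene that rose, have none of these letters in the window.
Fasn: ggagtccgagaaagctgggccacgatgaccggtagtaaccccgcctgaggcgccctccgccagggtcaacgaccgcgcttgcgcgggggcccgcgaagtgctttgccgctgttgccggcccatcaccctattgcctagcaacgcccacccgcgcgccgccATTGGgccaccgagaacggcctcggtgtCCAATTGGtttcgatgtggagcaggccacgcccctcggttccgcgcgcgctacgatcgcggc
Acacb: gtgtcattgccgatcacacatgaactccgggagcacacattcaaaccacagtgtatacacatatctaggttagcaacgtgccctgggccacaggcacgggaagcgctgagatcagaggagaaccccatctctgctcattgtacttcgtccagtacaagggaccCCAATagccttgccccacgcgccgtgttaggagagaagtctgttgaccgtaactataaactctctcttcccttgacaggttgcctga
Elovl6: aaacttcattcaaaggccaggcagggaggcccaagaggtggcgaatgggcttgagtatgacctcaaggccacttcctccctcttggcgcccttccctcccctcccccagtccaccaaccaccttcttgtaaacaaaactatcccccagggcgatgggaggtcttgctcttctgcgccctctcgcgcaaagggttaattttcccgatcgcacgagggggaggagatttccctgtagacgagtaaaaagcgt
Lss: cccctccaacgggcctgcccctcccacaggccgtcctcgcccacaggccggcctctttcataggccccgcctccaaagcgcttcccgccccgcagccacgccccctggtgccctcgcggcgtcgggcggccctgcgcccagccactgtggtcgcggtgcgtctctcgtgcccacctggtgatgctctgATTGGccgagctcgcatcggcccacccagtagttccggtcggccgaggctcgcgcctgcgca
Nsdhl: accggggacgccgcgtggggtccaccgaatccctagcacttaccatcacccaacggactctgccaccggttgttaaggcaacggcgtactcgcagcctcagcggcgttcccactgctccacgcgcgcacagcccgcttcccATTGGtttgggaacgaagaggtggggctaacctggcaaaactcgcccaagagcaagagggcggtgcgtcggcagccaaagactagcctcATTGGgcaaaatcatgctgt
Insig1: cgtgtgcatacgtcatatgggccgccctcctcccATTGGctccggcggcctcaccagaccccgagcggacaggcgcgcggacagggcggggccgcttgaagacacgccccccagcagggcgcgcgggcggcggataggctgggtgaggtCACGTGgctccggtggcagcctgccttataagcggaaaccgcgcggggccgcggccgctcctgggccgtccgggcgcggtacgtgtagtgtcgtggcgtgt
Ech1: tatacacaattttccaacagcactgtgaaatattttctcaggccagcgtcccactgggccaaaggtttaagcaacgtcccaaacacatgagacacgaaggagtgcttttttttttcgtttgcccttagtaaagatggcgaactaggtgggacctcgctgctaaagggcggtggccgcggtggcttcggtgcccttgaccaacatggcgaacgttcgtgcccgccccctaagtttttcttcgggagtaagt

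CCAAT on either strand was present in the windows of 12 of 12 cholesterol genes that have one in the table and of 10 of 16 synthesis genes (62.5%). The share was 40.3% of the 8335 tested genes with a window and 37.5% of all 27025 genes with one. Of the genes that passed, it was present in 3 of the 7 that fell and have a window (42.9%) and in 2 of the 8 that rose (25%). The window of Acaca, which fell and is not printed above, holds none of the motifs searched. The share was 5 of 14 in the genes of the carnitine shuttle and mitochondrial oxidation (35.7%), 2 of 5 in the isomerases and reductases and 9 of 18 in the peroxisomal genes. CACGTG was present in 4 of the 12 cholesterol genes (33.3%) and 2 of the 16 synthesis genes (12.5%), against 10.3% of the tested genes. The sterol element TCACNCCAC was found in 0 windows of either set, against 1.39% of the tested genes, and the PPAR direct repeat (DR1) in 0 as well, against 0.072%. All motifs were searched on both strands, and overlapping matches were counted. These matches describe letters in a short window and do not show binding.

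Genes of fatty acid oxidation were higher on the high-fat diet, by smaller amounts. Ech1, which shifts double bonds of unsaturated fatty acids so that oxidation can go on, read 10.24, 10.50 and 10.47 with low-fat and 11.30, 11.18 and 11.02 with high-fat feeding. The groups were apart, with low-fat replicate 1 lowest and high-fat replicate 1 highest. The rise was 1.7-fold (log2 change 0.76, SE 0.0899, limma adjusted p = 0.00402). Eci1, an enoyl-CoA isomerase of mitochondria with a related task, read 10.23, 10.32 and 10.11 with low-fat and 11.03, 10.95 and 10.68 with high-fat feeding. It rose 1.59-fold (log2 change 0.67, SE 0.0957, adjusted p = 0.0142).

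All 6 tested isomerases and reductases for unsaturated fatty acids were higher, 2 of them past the threshold and 5 with groups that did not overlap, with a median log2 change of 0.36. Over all tested genes, 7.83% were higher with groups that did not overlap. Decr2 and Decr1, the peroxisomal and mitochondrial dienoyl-CoA reductases, had 0.41 (limma adjusted p = 0.123) and 0.31 (adjusted p = 0.343), and Eci2 had 0.27. Of 17 tested genes of the carnitine shuttle and mitochondrial beta-oxidation, 16 were higher, 8 with groups that did not overlap, and none passed; the median log2 change was 0.22. The dehydrogenases of successive chain lengths were close to each other, with 0.30 for Acadvl, 0.27 for Acadl and 0.25 for Acadm. Hadh, a later step of the same spiral, had 0.22 and Cpt2, the inner carnitine palmitoyltransferase, 0.36. Hadhb had 0.29 by its brightest probe set and -0.028 as a mean of its probe sets. Cpt1a, the entry enzyme of the shuttle, had 0.086 (SE 0.0995), less than its spread, and its change was -0.038 without low-fat replicate 1.

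Peroxisomal genes had a median log2 change of 0.071 (0.14 without low-fat replicate 2), with 18 of 23 higher and none past the threshold. Hsd17b4, the bifunctional enzyme of the peroxisomal spiral, had 0.32 (limma adjusted p = 0.076), Ehhadh, its relative induced by PPAR-alpha, 0.43, and Acox2, an oxidase of branched chains, 0.27. Acat1, which works in ketone body metabolism, had 0.31 (adjusted p = 0.076). Further PPAR-alpha targets had larger and less even changes. Cyp4a10, a fatty acid omega-hydroxylase, read 9.52, 9.58 and 11.37 with low-fat and 12.07, 11.84 and 11.74 with high-fat feeding. Low-fat replicate 3 lay just under the high-fat arrays, and the other low-fat arrays were far below. The log2 change was 1.73 (SE 0.551, limma adjusted p = 0.338). Vnn1, a pantetheinase, read 5.61, 6.81 and 8.22 with low-fat and 9.23, 8.44 and 8.34 with high-fat feeding, again with low-fat replicate 1 lowest, and had 1.79 (adjusted p = 0.463). Aldh3a2, a fatty aldehyde dehydrogenase, had 0.84 (adjusted p = 0.0807). Low-fat replicate 1 was the lowest low-fat array in 10 of the 14 tested targets, whose median change was 0.11, or 0.047 without that array. Fgf21, a hormone of fasting and also such a target, read 5.53, 7.29 and 6.92 with low-fat and 7.06, 7.29 and 7.07 with high-fat feeding, and its groups overlapped.

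**Figure D3:**
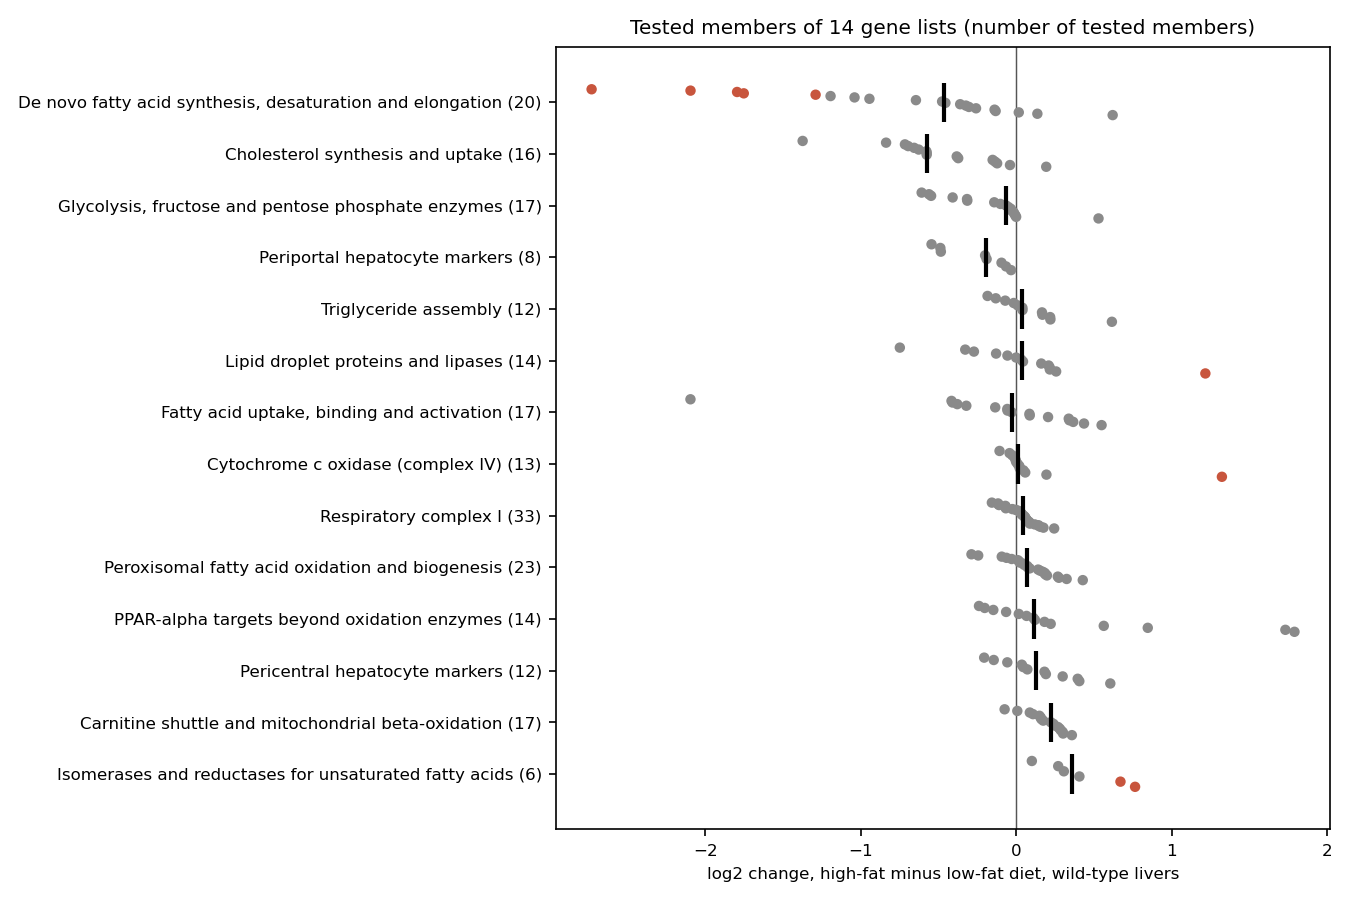
Log2 change on the high-fat diet (x axis) of every tested member of 14 gene lists (y axis, number of tested members in brackets); red points passed the threshold and black bars are list medians. Fatty acid synthesis and cholesterol lie left of 0 with medians of -0.47 and -0.58, mitochondrial oxidation and the isomerases lie right of it with 0.22 and 0.36, and single red points stand far from their lists at Fitm1 and Cox6b2.

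Cox6b2 rose, and no other tested member of its complex passed the threshold. It encodes the isoform of a cytochrome c oxidase subunit that is known from testis, and read 7.97, 8.35 and 8.54 with low-fat and 9.48, 9.62 and 9.73 with high-fat feeding. The 3 high-fat values were close together and all lay above the low-fat values. The rise was 2.5-fold (log2 change 1.32, SE 0.136, limma adjusted p = 0.00125). Cox6b1, the isoform of most tissues, had 0.057 (SE 0.0482), and the 13 tested members of complex IV had a median of 0.0080. The other members of complex IV lay between -0.11 and 0.19. Complex I had a median of 0.045 over 33 members, complexes II and III 0.0075 over 13 and ATP synthase 0.0040 over 16, with none past the threshold. In the tested citric acid cycle and pyruvate dehydrogenase genes the median was 0.055. Pdk1, a kinase that switches pyruvate dehydrogenase off, had -0.62 with groups that did not overlap (adjusted p = 0.076).

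Of the genes of fat storage and transport, 1 passed. Fitm1, which helps form lipid droplets, read 5.47, 5.86 and 5.30 with low-fat and 6.77, 6.51 and 7.004 with high-fat feeding. Every high-fat array was above every low-fat array, and the rise was 2.32-fold (log2 change 1.22, SE 0.192, limma adjusted p = 0.0274). The 14 tested droplet proteins and lipases had a median of 0.037. Plin2, the coat protein of hepatocyte droplets, had 0.031, and triglyceride assembly had a median of 0.039 over 12 genes, with no member past the threshold. Fabp5, a fatty acid binding protein, had a change as large as that of Elovl6, -2.10, with values of 11.95, 11.36 and 10.87 with low-fat and 7.87, 9.53 and 10.50 with high-fat feeding. The high-fat arrays differed widely from each other, and the change did not pass (SE 0.623, adjusted p = 0.281). Cd36, a fatty acid transporter, had 0.55 with overlapping groups. Dbi, which binds acyl-CoA, and Acsl5, which activates fatty acids, had -0.38 and -0.41, both with groups apart (adjusted p = 0.076 and 0.103).

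The other genes that passed belong to no common list. Them7, named as a member of a thioesterase family, read 9.20, 9.08 and 8.98 with low-fat and 9.76, 9.84 and 9.76 with high-fat feeding (log2 change 0.70, limma adjusted p = 0.0142). Nt5e, the ectoenzyme that makes adenosine from AMP, read 4.74, 4.76 and 4.79 with low-fat and 5.95, 5.74 and 5.45 with high-fat feeding (0.95, adjusted p = 0.0275). The low-fat values of Nt5e were nearly equal, and its other probe sets had 0.25 and 0.05. Treh, which splits the sugar trehalose, rose from 5.79, 5.61 and 5.29 to 6.80, 6.79 and 6.55 (1.15, adjusted p = 0.0301). Meg3, an imprinted long non-coding RNA, read 6.68, 6.08 and 6.01 with low-fat and 8.14, 7.23 and 8.53 with high-fat feeding. It had the largest rise of those that passed, 3.28-fold (log2 change 1.71, SE 0.291, adjusted p = 0.0369), with high-fat replicate 2 nearest to the low-fat arrays. Meg3 has 10 probe sets, and the changes of the others ranged from -0.06 to 1.29.

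Among the falls, Rnd2, a small GTPase, read 6.96, 7.03 and 7.16 with low-fat and 5.80, 5.77 and 5.95 with high-fat feeding (log2 change -1.21, limma adjusted p = 0.00933). Reck, a membrane inhibitor of matrix metalloproteinases, read 5.74, 5.46 and 5.29 with low-fat and 4.44, 4.03 and 4.24 with high-fat feeding (-1.26, adjusted p = 0.0142). Vegfb, a growth factor of the VEGF family, read 5.55, 5.54 and 5.48 with low-fat and 4.29, 4.60 and 4.92 with high-fat feeding (-0.92, adjusted p = 0.0318). The high-fat values of Reck and Vegfb lie close to 4.08, the lowest mean tested, where changes can be compressed. Kcnh3, a potassium channel, had -0.94 (adjusted p = 0.0275), while its other probe sets had -0.54 and 0.11. 1810008I18Rik had -1.24 (adjusted p = 0.0275). Of all 18 other probe sets of the genes that passed, which 7 of the genes have, 15 had the sign of the one used.

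The tested genes of the controllers named above, Ppara, Mlxipl and Srebf2, had small changes in their own signal, as did Nr1h3. The log2 change was -0.066 (SE 0.0975) for Ppara, -0.057 (SE 0.108) for Mlxipl, which encodes ChREBP, 0.17 (SE 0.151) for Srebf2 and 0.042 (SE 0.108) for Nr1h3, the liver X receptor. Other probe sets had -0.30 and 0.07 for Ppara and -0.11 for Srebf2. None of 26 tested factors and coregulators passed, and their median was 0.015. Pparg lay under the filter on dim genes and was not tested. Its log2 change was 0.52, with groups that did not overlap. Srebf1, which encodes SREBP-1c, and Ppargc1a are not analysed here.

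Genes of sugar metabolism were mostly lower, by small amounts. Of 17 tested genes of glycolysis, fructose use and the pentose phosphate pathway, 16 were lower and none passed. In 4 of the 16 the groups did not overlap, against 7.89% of all tested genes that were lower in this way. The median log2 change of the 17 was -0.066, between -0.11 without high-fat replicate 1 and -0.043 without high-fat replicate 3. Tkt, transketolase of the pentose phosphate pathway, had -0.61 (limma adjusted p = 0.076), Pklr, liver pyruvate kinase and a ChREBP target, -0.56, Tkfc, which phosphorylates glyceraldehyde, -0.41, and Aldoa -0.32. Gys2, liver glycogen synthase, had -0.31. In bile acid and lipoprotein genes none passed either. The 21 tested bile acid genes had a median of 0.038. Of these, 2 were higher and 2 lower with groups that did not overlap, against 7.83% and 7.89% of all tested genes. Slc10a2, a bile acid uptake transporter, had -0.82, the phospholipid exporter Abcb4 0.45 and the basolateral exporter Abcc3 0.59, with groups that did not overlap. Cyp7a1, the rate-limiting enzyme of bile acid synthesis, had 0.23 (SE 0.411). Apob, the structural protein of very low density lipoprotein, had -0.58 (adjusted p = 0.371). Of the 20 tested lipoprotein genes, 12 were higher, at a median of 0.0093. Groups did not overlap in 2 higher and 2 lower members. Cyp3a11, a drug-metabolising P450 induced through PXR, had -0.96, and Gstm3 and Gstm2, glutathione transferases, -0.79 and -0.51. Of 14 tested P450 and conjugation genes, 10 were lower, 3 with groups that did not overlap, at a median of -0.13. Among the 4 higher ones, Alas1 had 1.02 with overlapping groups. Of 17 tested antioxidant genes, 9 were higher, at a median of 0.0076. Their groups did not overlap in 2 lower members and 1 higher member, Gsr, at 0.34. No tested member of these lists passed.

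Markers of other cells and of liver zones were read for the same arrays. Over all tested genes, 7.83% were higher and 7.89% lower with groups that did not overlap. Macrophage and Kupffer cell markers were higher in 14 of 15 tested members, 5 with groups that did not overlap, at a median of 0.29 (0.48 without high-fat replicate 3) and with none past the threshold. Their mean signal was 5.79 to 6.03 with low-fat and 6.04 to 6.27 with high-fat feeding. The SD of this mean was 0.13 and 0.12, against 0.80 and 0.62 in the knockout low-fat and high-fat groups. The test pools the spread of all 4 groups, so the knockout scatter enters the standard errors of these wild-type changes. No member had an unadjusted p under 0.05 in limma. Adgre1, a surface marker of macrophages, had 0.53 and C1qb, a complement subunit made by macrophages, 0.52, whereas Clec4f, a Kupffer cell lectin, had 0.23 with overlapping groups. Periportal hepatocyte markers were lower in 8 of 8 members, 5 with groups apart, at a median of -0.20, with Hal, the histidine-degrading enzyme, at -0.55. Pericentral markers were higher in 9 of 12 members, 3 with groups apart, at a median of 0.13 (0.22 without high-fat replicate 1), with the glutamate transporter Slc1a2 at 0.60. Exocrine pancreas markers averaged 4.22 to 4.29 with low-fat and 4.35 to 4.53 with high-fat feeding, close to the dim end, with a median change of 0.26 over 4 tested members that was 0.11 without high-fat replicate 2. In whole liver a change in the number of cells of a type and a change of RNA per cell cannot be told apart, and the part of these markers in the results above was not tested. Interferon response genes had a median of -0.0090 over 17 members, none with groups apart, and acute phase proteins 0.051 over 23, with none past the threshold. Of the 23 acute phase members, 1 was higher and 2 were lower with groups that did not overlap, against 7.83% and 7.89% of all tested genes. The higher one was Lbp, which binds lipopolysaccharide, at 0.40 (limma adjusted p = 0.268). The lower ones were Apcs, serum amyloid P, at -0.37 (adjusted p = 0.165) and Hamp2, a hepcidin gene, at -0.92 (adjusted p = 0.222). Mt1, metallothionein, had 1.41 with overlapping groups (adjusted p = 0.515).

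**Figure D4:**
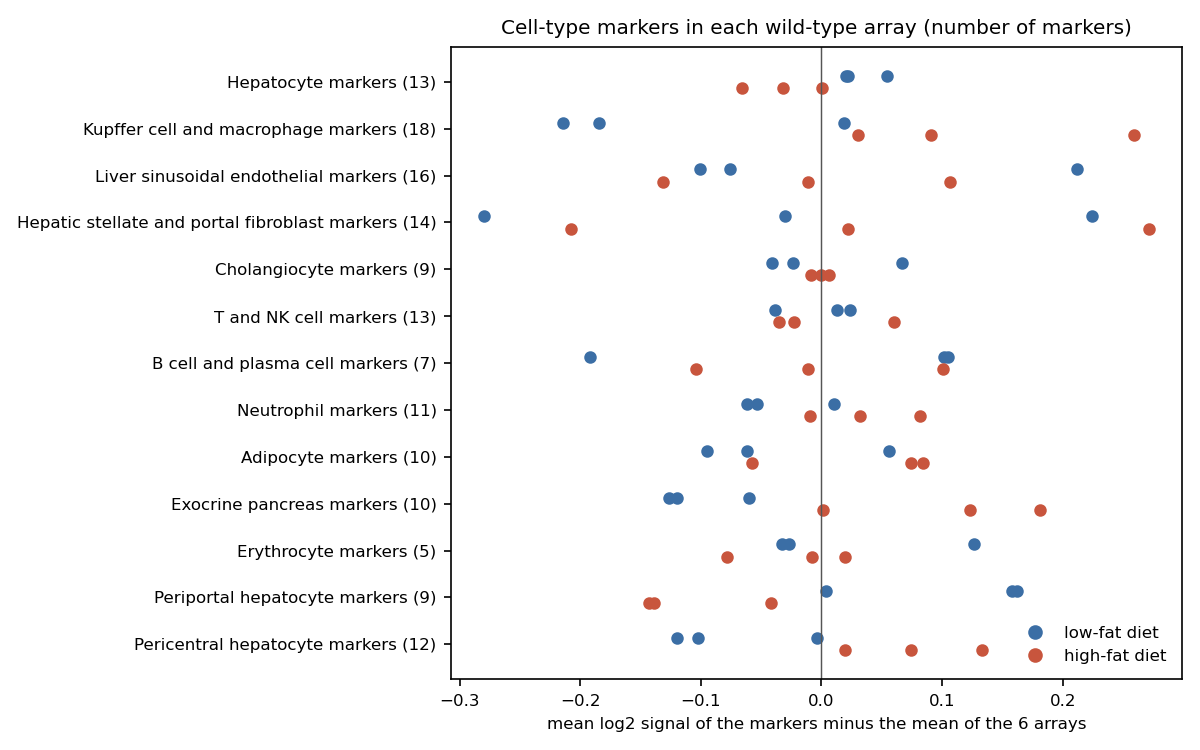
Mean log2 signal of each cell type's markers minus the mean of the 6 arrays (x axis) for 13 marker lists (y axis, number of markers in brackets); blue points are low-fat and red points high-fat wild-type arrays. The high-fat arrays lie wholly to the right of the low-fat arrays for macrophage, pericentral and pancreas markers and wholly to the left for periportal and hepatocyte markers, and the groups overlap for the other lists.

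The diet changes were then set beside those in Pml knockout livers, which are separate arrays with their own low-fat controls. In those, 311 of 10258 genes (3.03%) passed, 180 higher (1.75%) and 131 lower (1.28%). The count was 111 and 151 without knockout low-fat replicate 1 or 2, 188, 71 and 136 without knockout high-fat replicate 1, 2 or 3, and 461 without knockout low-fat replicate 3. All 18 wild-type genes had the same sign in the knockout, passed there and had groups that did not overlap, and in 9 the change was larger. Groups did not overlap in 21.7% of all tested genes in the knockout. Both tests use one estimate of each gene's spread over all 4 groups. Genes that passed in the wild type are therefore also chosen for little scatter in the knockout, which favours passing and separation there. The share over all genes is not a like comparison for them. Scd1 had -2.31 in the knockout against -2.73, Elovl6 -1.65 against -2.10, Cox6b2 1.04 against 1.32 and Ech1 0.62 against 0.76. Larger in the knockout were Fitm1, with 1.74 against 1.22, Acaca, with -1.70 against -1.29, and Vegfb, with -1.44 against -0.92. The direct limma test of the difference between the diet changes had an unadjusted p under 0.05 for only 1 of the 18, Vegfb (adjusted p = 0.827). Over all genes 0 passed that test in limma, 585 (5.7%) had an unadjusted p under 0.05, and the smallest adjusted p was 0.366. Without knockout low-fat replicate 3, 1 gene passed. The larger count of genes in the knockout is therefore not shown to be a larger response. Of the 311 genes, 286 had the same sign in the wild type, and Pearson's r between the changes was 0.46 across genes, which are not independent replicates.

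**Figure D5:**
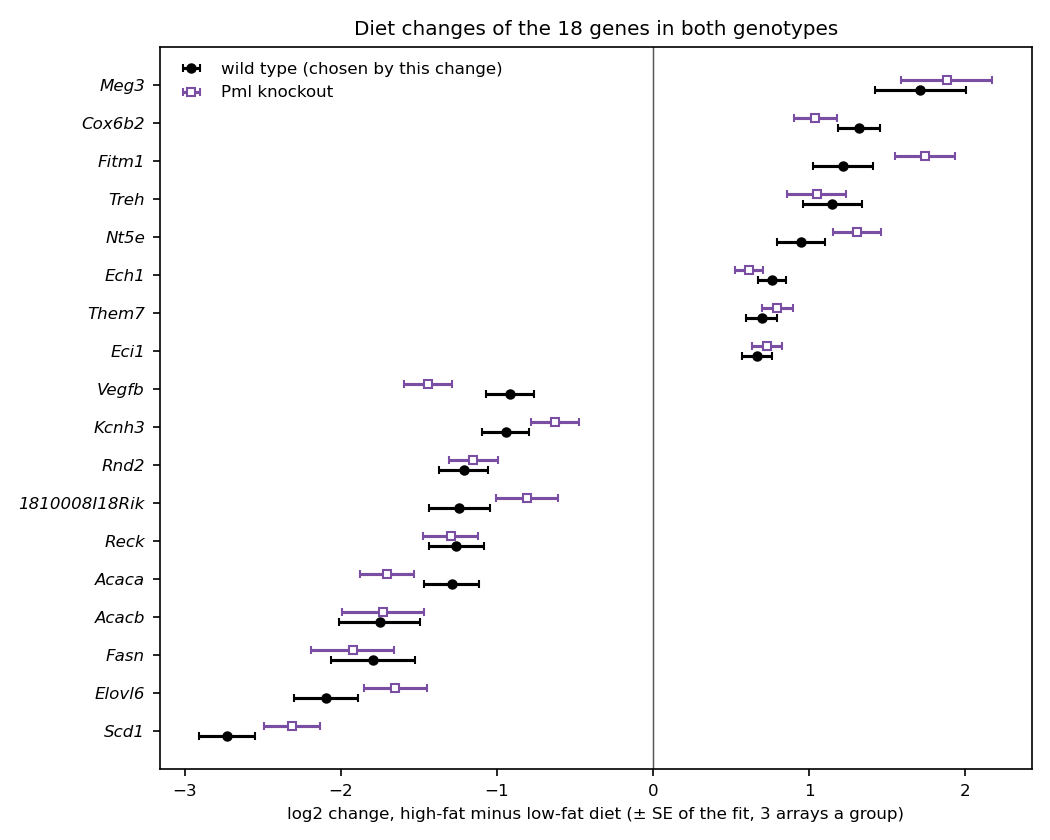
Log2 change on the high-fat diet with its standard error from the fit (x axis; 3 arrays in each group) for the 18 genes (y axis) in wild-type (black circles) and Pml knockout livers (open purple squares). The genes were chosen by their wild-type change; each knockout value lies on the same side of 0, and the gap is widest at Fitm1 and Vegfb.

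The lists had similar medians in the 2 genotypes for synthesis (-0.47 in the wild type and -0.48 in the knockout) and mitochondrial oxidation (0.22 and 0.25). In the knockout, 7 synthesis genes fell and 6 mitochondrial oxidation genes rose, against 5 and 0 in the wild type. Over all tested genes, 1.28% fell and 1.75% rose in the knockout, against 0.0975% and 0.078% in the wild type. The limma test of the difference between genotypes had an unadjusted p under 0.05 for 1 member of each list, against 5.7% of all tested genes. Cholesterol genes had -0.58 and -0.33, macrophage markers 0.29 and 0.40, and periportal markers -0.20 and -0.16. The interferon list had -0.0090 in the wild type and 0.60 in the knockout. The difference had an unadjusted p under 0.05 in limma for 8 of its 17 genes, against 5.7% of all tested genes. None of the 17 was past the adjusted threshold. Sinusoidal endothelial markers had -0.043 and -0.48. The knockout arrays of one diet stood far apart in both marker lists. The mean signal of the endothelial markers was 6.80, 5.95 and 6.41 in the knockout low-fat arrays and 6.53, 5.80 and 5.82 in the high-fat arrays, with groups that did not overlap in 1 of 15 members. For the macrophage markers it was 6.37, 4.85 and 6.03 and then 6.57, 6.13 and 5.34, with groups that did not overlap in 0 of 15. Pdk1 had -0.62 in the wild type and -0.078 in the knockout, with an unadjusted p of 0.00924 for the difference in limma. In the fit with all arrays, no gene passed that test after adjustment.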

How the data were processed

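The values used are the deposited log2 signals of 45141 probe sets on 12 arrays of a perfect-match mouse chip, made by the authors with RMA per the submitters' processing notes; no version or settings are named there. RMA commonly equalises the distributions of arrays, so that a shift common to all genes would not be seen. Per the labels, the RNA was a Trizol extract of total RNA and carried biotin. Array medians lay between 3.94 and 4.00, and no scaling was added.

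Of the probe sets, 28898 name a single gene, and the brightest stood for each of 17097 genes. The 40% dimmest by the same mean were left out, leaving 10258. The means of the 4 groups were modelled jointly in limma 3.58.1 (R 4.3.3), leaving 8 residual degrees of freedom, with trended empirical Bayes variances and Benjamini-Hochberg adjustment. Exact permutation of 3 against 3 arrays cannot give a p below 0.1, so none was run. Values after ± are SD over 3 arrays. The number of arrays limits the precision.

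Named genes are those that passed, Pml, the up to 6 members of a described list with the smallest p, and 17 regulators considered throughout; other genes named, such as Acly, Elovl3, Fads2, Cox6b1 and Clec4f, were chosen after their values were seen. The genes and lists were chosen with earlier results of these data known. Alternatives were other normalizations, filters, probe set rules, variance models, array weights, thresholds, the 6 wild-type arrays alone, a replicate block, and leaving out each array; those for the knockout count were chosen after seeing the data. Extracts with the same number did not deviate together (r = -0.17, 0.044 and 0.13 for replicates 1, 2 and 3), so the numbers were not used as pairs.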

Additional observations from a re-analysis of the deposited data

How the results depend on the processing

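The count of 18 genes was 34 after quantile normalization, 109 with array weights and 65 at an adjusted p of 0.10, and it ranged from 5 to 39 when each array was left out in turn. Under the other settings tried it lay between 16 and 22. With the replicate number as a block, 22 genes passed, 16 of them among the 18, and Nt5e and Treh did not pass. The labels do not state whether the numbers pair the extracts. The test of the difference between genotypes gave 0 genes under every setting except the fit without 1 knockout array, with a range of 0 to 1. The knockout count was 655 at an adjusted p of 0.10 and ranged from 71 to 461 when each array was left out.

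Among the 18 genes, 0 changed direction under any setting, 4 passed in all of them and 9 passed in all settings that keep every array. With the 6 wild-type arrays alone, 20 genes passed, 13 of them among the 18. Fitted on every probe set alone, 24 of 17339 probe sets passed, and they belong to 21 genes. Signals near the bottom or top of the range limit the size of a change that these arrays can show.

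Of the genes named without passing, 8 had a change that turned its sign under some setting. Hadhb had -0.028 as a mean of its probe sets. With each array left out in turn, the ranges were -0.0046 to 0.63 for Clec4f, -0.038 to 0.18 for Cpt1a, -0.18 to 0.58 for Cyp7a1, -0.13 to 0.082 for Mlxipl, -0.071 to 0.16 for Nr1h3, -0.18 to 0.25 for Plin2 and -0.0055 to 0.24 for Pml.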
